A study of Mus musculus with 8 samples.

Results

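The 3′ UTR peaks described here are the MBD5 and MBD6 CLIP–seq peaks that begin in the untranslated sequence between the stop codon and the 3′ end of an mRNA. A peak was taken when the position 15 nt inside its 5′ end lay, on the same strand, in a 3′ UTR and in no 5′ UTR or coding sequence of a protein-coding transcript (GENCODE vM21, mm10). Of 29555 peaks, 447 met this rule, and they merged into 253 sites of 241 genes, out of 12074 sites in all. The cells were mouse embryonic stem (mES) cells of wild-type origin kept with LIF, CHIR99021 and PD0325901, into which the human coding sequence of MBD5 or MBD6 with a Flag tag had been introduced for stable overexpression under hygromycin selection. The 2 groups analysed, Flag-MBD5 CLIP and Flag-MBD6 CLIP, held 2 replicates each, and the 4 digested inputs were not analysed here as samples. The CLIP samples carried a Flag antibody in their characteristics, whereas the extraction protocol in the labels named an MBD6 antibody and the study's methods the Flag antibody. Cells without a Flag protein were not analysed here, so a peak could not be set against an immunoprecipitation from untagged cells.

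MBD5 and MBD6 carry a methyl-CpG-binding-type domain and associate with the PR-DUB complex, which removes ubiquitin from histone H2A. The 3′ UTR of an mRNA is not translated and carries binding sites for many RNA-binding proteins and microRNAs, among them AU-rich elements and the polyadenylation signal. In CLIP–seq, ultraviolet light fixes a protein to its RNA, and the RNA left after RNase treatment is sequenced. RNase T1, used here, cleaves after G, so that a fragment cut by it begins after a G.

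The 4 libraries held 5362 to 9587 peaks from an estimated 478790 to 1111742 reads, and the Flag-MBD6 libraries were the deeper ones. At sites with 60 summit reads in the other protein, replicates differed in summit reads by less than the sampling noise. Chi-square per degree of freedom was 0.519 between the MBD5 replicates (685 sites) and 0.872 between the MBD6 replicates (277 sites). Each pair was counted as 1 sample. Summit reads were known only at called peaks, and the MBD5 replicates did differ in the base before the 5′ end of 3′ UTR peaks, as given below. No difference between the proteins was therefore tested against the variation between samples, and all intervals below are 95% intervals of counting error only. The tissue label reads embryos, but the cell type is given as mES cells. Of 15 embryonic stem cell genes, 12 held a peak of any class, and Klf2, Lin28a and Utf1 held none. None of 8 feeder fibroblast genes, Col1a1 and Thy1 among them, held a peak. Among all 21951 protein-coding genes 4019 held one, so 8 genes are too few to tell whether feeder cells were absent.

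The first 30 nt from the 5′ end are shown for the 12 best-ranked sites with a 3′ UTR peak in every library, because they show what the strongest and most shared members begin with. Capitals mark the letters GAAGA, a purine pentamer discussed below, and coordinates are those of mm10.
Ppp1r12c, chr7:4481806-4481835, minus strand: gcaccagagatgggaccaagaaggaagcaa
Trp53bp2, chr1:182461824-182461853, plus strand: agaagcaatGAAGAatgtgccgtgGAAGAa
Trap1a, chrX:139337954-139337983, plus strand: cccaGAAGAaagaaatggacagcgGAAGAa
Rpn2, chr2:157325716-157325745, plus strand: cacattagttccaGAAGAagtctGAAGAcc
Wdr89, chr12:75631276-75631305, minus strand: cctcttacctgctggccgccctcgggggca
Zc3h18, chr8:122416849-122416878, plus strand: aggctgagtcccaacctccccaccagactg
Lars2, chr9:123462077-123462106, plus strand: actaatagggaacgtgagctgggattagac
Ivns1abp, chr1:151355168-151355197, plus strand: tttattaacaaaactaggatccccaagact
Eif4b, chr15:102095386-102095415, plus strand: caaatcaaacctctatccagacaagacaaa
Laptm5, chr4:130935101-130935130, plus strand: cccctcccaccactcactgcagtgctcacc
Atp5mpl, chr12:111961485-111961514, minus strand: actaactgctccgaatccacaagatGAAGA
Tmem38b, chr4:53860737-53860766, plus strand: ggagaccgcctgggaataccgggtgctgta

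Sites found for 1 protein only are shown beside them, so that their starts can be compared. The first 4 had a 3′ UTR peak in both Flag-MBD5 libraries and no Flag-MBD6 peak, and the last 5 had one in both Flag-MBD6 libraries and no Flag-MBD5 peak.
Ctsz, chr2:174427669-174427698, minus strand: cgccgtaccctccaggcctgcctcctccac
Gaa, chr11:119285175-119285204, plus strand: cttttcccaccgtgttactgcatgcgcccc
Pop4, chr7:38263113-38263142, minus strand: actGAAGAactggaaactccctaaatactc
Ncstn, chr1:172066649-172066678, minus strand: actGAAGAggactctagctctccctgcctg
Nfib, chr4:82296624-82296653, minus strand: aaaattaggggaaaaacacccaacaaagga
Snhg11, chr2:158385312-158385341, plus strand: acaaggactgcatcccagagaccaccagac
Purb, chr11:6474299-6474328, minus strand: caactttacacaatcatggacagggcaaga
Slc38a1, chr15:96615177-96615206, minus strand: actaccatggattaaagctggattcaacaa
A630089N07Rik, chr16:98063471-98063500, minus strand: caacaaattacaagaaatggaagggagaat

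Few peaks began in 3′ UTRs in any library. Replicates 1 and 2 of Flag-MBD5 had 87 and 86 of them, and those of Flag-MBD6 had 129 and 145. Among peaks that began in exons of coding transcripts, these made up 2.003% (1.63–2.46%) and 1.964% (1.59–2.42%) of those of MBD5, and 1.70% (1.44–2.02%) and 1.84% (1.57–2.16%) of those of MBD6. Peaks that began in coding sequence numbered 4189, 4234, 7319 and 7606 in the same order. The intervals of the 4 shares overlapped, and the mean share of Flag-MBD6 minus that of Flag-MBD5 was −0.211 percentage points.

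Most of the 253 sites were not called in every library. A 3′ UTR peak was called in 1 library at 140 sites, in 2 at 61, in 3 at 25 and in all 4 at 27. Counting a peak of any class at the site, 56 sites (22.1%) had one in both Flag-MBD5 libraries, against 32.8% of all sites. Both Flag-MBD6 libraries had one at 97 sites (38.3%), against 61.9% of all sites. All 4 libraries had one at 40 sites (15.8%, 11.8–20.8%), against 29.5% of all sites and 29.2% (28.3–30.1%) of the 9539 coding-sequence sites. The 3′ UTR sites thus fell below the background on each count.

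The 12 sites printed first belong to genes of different known roles, and their fold enrichment over the local background rate, as the authors' peak caller gave it, lay between 7.18 and 28.2. Ppp1r12c, a regulatory subunit gene of myosin phosphatase, had the best mean rank, with fold enrichments of 10.4 and 13.7 in Flag-MBD5 and 23.0 and 25.1 in Flag-MBD6 and with 12, 17, 34 and 39 reads at the summit. Trp53bp2, whose product binds p53, followed with 10.0 and 11.2 against 20.5 and 17.7. The fold is the number of reads plus 1 over the rate plus 1, so that at low rates it grows with the depth of a library, and the Flag-MBD6 libraries were the deeper ones. Scaled to the estimated library totals, the log2 ratio of Flag-MBD6 to Flag-MBD5 summit reads was 0.25 at Ppp1r12c and 0.09 at Trp53bp2, although the fold enrichments of the proteins did not overlap at either site. Ivns1abp, a kelch-domain protein gene, had 7.70 and 9.15 against 20.5 and 16.6, and Atp5mpl, a subunit gene of the mitochondrial ATP synthase, had 7.18 and 9.48 against 13.8 and 13.2. Their scaled log2 ratios were 0.47 and −0.0036, so that Atp5mpl was level between the proteins. Laptm5, a lysosomal membrane protein gene, had the opposite order, with 16.9 and 12.4 for Flag-MBD5 against 10.5 and 9.07 and a scaled log2 ratio of −1.47.

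In most of the other sites of this set the libraries of the 2 proteins overlapped. Rpn2, a subunit gene of the oligosaccharyltransferase of the endoplasmic reticulum, had fold enrichments of 12.2 and 21.3 in Flag-MBD5 and 21.7 and 11.7 in Flag-MBD6. Trap1a, a tumour antigen gene, had 13.9, 11.4, 13.7 and 17.2. Replicates of 1 protein could therefore lie as far apart as the proteins did, as the plot of the 12 sites shows. Zc3h18, a nuclear RNA-processing factor gene, had 7.28 and 16.1 against 18.6 and 17.2, a gap smaller than that between its Flag-MBD5 replicates, and its scaled log2 ratio of −0.58 had the opposite direction. Eif4b, a translation initiation factor gene, had 13.3, 14.7, 13.7 and 8.37 with 39, 39, 40 and 44 summit reads.

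**Figure D1:**
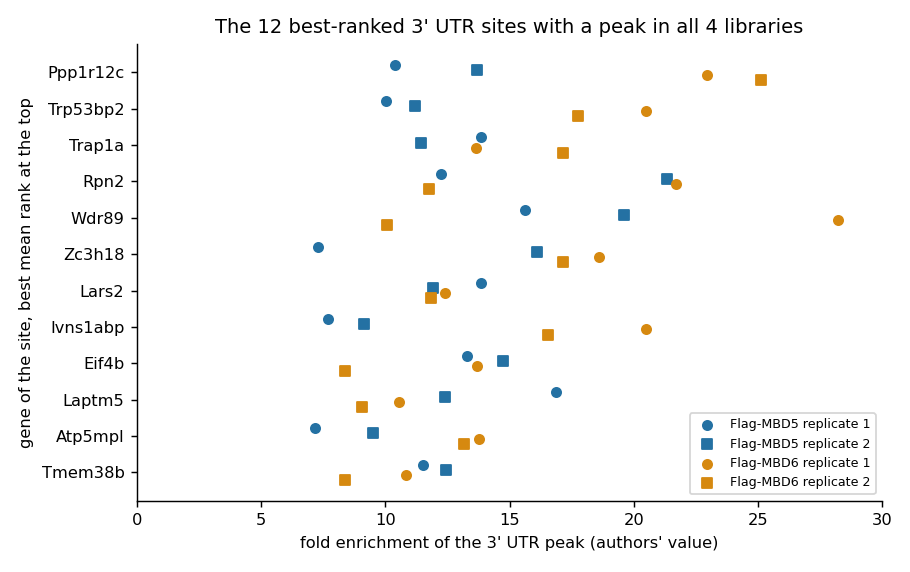
Fold enrichment (x axis, the authors' value, linear) of the 3′ UTR peak in each of the 4 libraries at the 12 best-ranked sites (y axis). Circles and squares are replicates 1 and 2, blue is Flag-MBD5 and orange Flag-MBD6. Ppp1r12c, Trp53bp2, Zc3h18, Ivns1abp and Atp5mpl have both orange points to the right of both blue points, and Laptm5 and Tmem38b have both to the left. The fold is not scaled for depth, and the scaled log2 ratio was −0.0036 at Atp5mpl and −0.58 at Zc3h18.

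Several of these sites have copies elsewhere, and reads with up to 10 places in the genome had been kept. The printed Tmem38b window, within the gene of an endoplasmic reticulum cation channel, also lies in an exon of a 5S ribosomal RNA gene and has exact copies in transcripts of 46 other genes, all annotated as rRNA. Its 54 to 67 summit reads in the 4 libraries can therefore not be told apart from reads of those copies. The Wdr89 window occurs unchanged in Rplp2, a ribosomal protein gene, and its site had 33, 26, 42 and 31 summit reads. Lars2, the mitochondrial leucyl-tRNA synthetase gene, had fold enrichments of 13.9, 11.9, 12.4 and 11.8. Its window matches the transcript of Gm15564 with up to 3 mismatches, so its reads may be shared with copies. Copies were searched in annotated transcripts only, so copies in sequence outside them would not have been seen. Over all sites, 16 of 251 windows (6.37%) had an exact copy in a transcript of another gene, and 29 (11.6%) had one with up to 3 mismatches, the number that the authors' alignment allowed.

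Across the 447 peaks the fold enrichment was lower than for peaks in coding sequence. The medians of MBD5 replicates were 7.70 and 7.62 and those of MBD6 replicates 8.53 and 8.28, against 10.4, 10.5, 11.2 and 11.3 for coding-sequence peaks of the same libraries. On the log2 scale the 3′ UTR median minus the coding-sequence median was −0.43, −0.46, −0.39 and −0.45. The 4 libraries showed the same direction, and the mean difference was −0.43. The strongest 3′ UTR peak reached a fold of 28.2, at Wdr89, whereas the strongest coding-sequence peak reached 147. These maxima were taken over classes of unequal size, 447 and 23348 peaks. A fold enrichment of 20 or more was found in 0, 1, 5 and 4 of the 3′ UTR peaks. That was at most 3.88% of the 3′ UTR peaks of a library. In coding sequence 554, 542, 1364 and 1467 peaks reached it, which was 12.8% to 19.3% of those of a library.

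Summit reads, rebuilt from the fold enrichment and the p-value of each peak, differed less between the classes. The median 3′ UTR peak had 12 and 16 in the MBD5 replicates and 16 and 18 in the MBD6 ones, against 15, 16, 20 and 21 in coding sequence. The background rate of the peak caller had a median of 0.548, 0.841, 0.611 and 0.738 reads at 3′ UTR peaks and 0.393, 0.420, 0.611 and 0.690 at coding-sequence peaks. In the Flag-MBD5 libraries the lower fold of 3′ UTR peaks thus went with a higher background rate as well as with fewer or equally many reads.

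**Figure D2:**
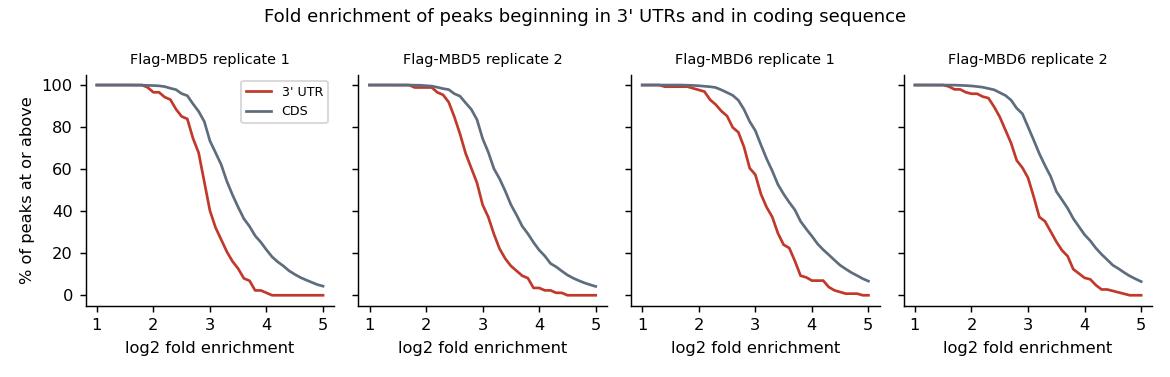
Percentage of peaks (y axis) whose fold enrichment is at or above the value on the x axis (log2 scale), for 3′ UTR peaks in red and coding-sequence (CDS) peaks in grey, 1 panel per library. The red curve lies to the left of the grey one in each panel, with medians of 7.62 to 8.53 against 10.4 to 11.3 on the linear scale.

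3′ UTR peaks were found again in the other replicate less often than coding-sequence peaks. Of 173 Flag-MBD5 3′ UTR peaks, 105 (60.7%, 53.3–67.7%) overlapped a peak of the other replicate, against 74.6% (73.7–75.6%) of coding-sequence peaks. For Flag-MBD6 the shares were 61.7% (55.8–67.2%) of 274 and 80.7% (80.1–81.3%). The share rose with the number of summit reads in both classes. Among peaks with 15 to 19 summit reads, 57.1% (39.1–73.5%) of Flag-MBD5 3′ UTR peaks and 82.0% (80.0–83.8%) of coding-sequence peaks were found again, and for Flag-MBD6 these were 62.0% (50.3–72.4%) and 77.5% (76.0–79.0%). With 30 or more reads, 89.7% against 99.1% were found again for MBD5, and 91.5% against 98.8% for MBD6. Below 10 reads the intervals of the classes overlapped for both proteins.

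**Figure D3:**
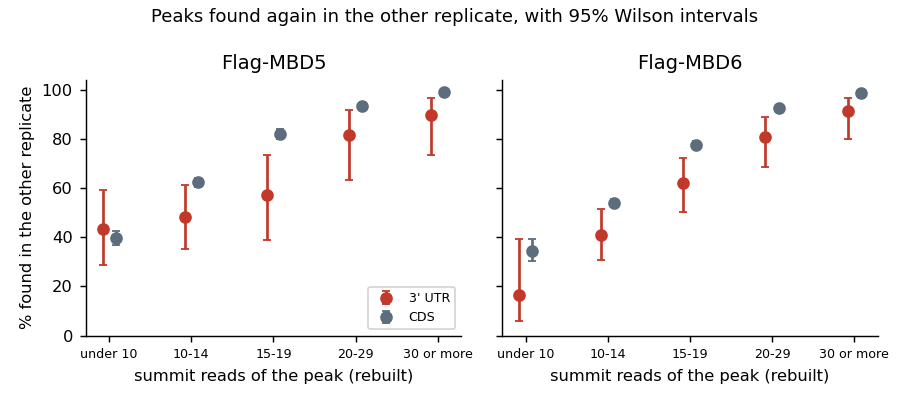
Percentage of peaks found again in the other replicate (y axis, with 95% Wilson intervals) by the rebuilt number of summit reads (x axis), for 3′ UTR peaks in red and CDS peaks in grey. From 10 reads on, the red points lie below the grey ones for both proteins, for instance 57.1% against 82.0% for Flag-MBD5 at 15 to 19 reads.

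Of the regions called in both replicates, those of MBD5 were also shared less with the other protein. Of 54 such MBD5 3′ UTR regions, 38 (70.4%, 57.2–80.9%) were overlapped by an MBD6 region, against 89.9% (88.8–90.9%) of coding-sequence regions. In the other direction, 35 of 91 MBD6 3′ UTR regions (38.5%, 29.1–48.7%) were overlapped by an MBD5 region, against 46.2% (44.9–47.5%) in coding sequence, and these intervals overlapped. The MBD6 value fell to 23.4% without Flag-MBD6 replicate 1 and to 27.9% without replicate 2, and was 47.3% and 48.4% without Flag-MBD5 replicates 1 and 2. The MBD5 value was 50.0% and 50.6% without Flag-MBD5 replicates 1 and 2, since a protein left with 1 library keeps all its peaks. The Flag-MBD6 libraries held more peaks, and the part of this in these shares was not tested. Taking any peak, called in both replicates or not, 51 sites (20.2%, 15.7–25.5%) were found in Flag-MBD5 libraries only. This held for 6.89% (6.40–7.41%) of coding-sequence sites. Only 10 of the 51, and 117 of the 657 in coding sequence, had a peak in both Flag-MBD5 libraries. Of all 3′ UTR sites 49.8% had a peak in 1 library only, against 29.8% of coding-sequence sites.

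Of the sites of 1 protein, 10 had a 3′ UTR peak in both Flag-MBD5 libraries and no Flag-MBD6 peak. The 5 strongest were in Ctsz and Gaa, which encode the lysosomal enzymes cathepsin Z and acid alpha-glucosidase, in Pop4, an RNase P subunit gene, in Diaph1, an actin-nucleating formin gene, and in Ncstn, which encodes the nicastrin subunit of gamma-secretase. Their fold enrichments were modest, at 8.40 and 10.3 for Ctsz, 8.47 and 9.08 for Gaa, and 8.77 and 7.75 for Pop4. Diaph1 had 7.28 and 8.10 and Ncstn 7.39 and 7.90. For Flag-MBD6 there were 37 such sites. Counting a peak of any class, sites of this kind for Flag-MBD5 made up 3.95% (2.16–7.12%) of 3′ UTR sites and 1.23% (1.02–1.47%) of coding-sequence sites. For Flag-MBD6 they made up 15.4% (11.5–20.4%) and 21.2% (20.4–22.0%). The strongest of the 37 was in the transcription factor gene Nfib, with 19.03 and 27, followed by Snhg11, a small nucleolar RNA host gene with an annotated coding transcript, with 12.4 and 19.5. Purb, which encodes a single-stranded nucleic acid-binding protein, had 15.7 and 15.3, the amino acid transporter gene Slc38a1 had 11.2 and 18.2, and A630089N07Rik had 13.8 and 15.1. The A630089N07Rik window matches transcripts of 9 other genes with up to 3 mismatches.

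Where both proteins could be measured, the signal leaned to Flag-MBD5. At the 40 sites with a peak in all 4 libraries, the median log2 ratio of Flag-MBD6 to Flag-MBD5 summit reads, scaled to the estimated library totals, was −0.81 (−0.93 to −0.44), and 36 sites were below 0. At the 2784 coding-sequence sites of this kind the median was −0.24 (−0.26 to −0.21). Among sites with 100 or more summit reads over the 4 libraries the medians were −0.89 (−1.03 to −0.65, 19 sites) and −0.21 (−0.24 to −0.18, 1609 sites), so the gap was present at well-covered sites. At sites with under 60 reads, of which the 3′ UTRs had only 6, the order was the opposite, with −0.29 (−1.10 to −0.00357) against −0.54 (−0.59 to −0.46), and the intervals overlapped. Since a site had to be called in the shallower Flag-MBD5 libraries too, the zero of this ratio depends on the selection and on the scaling. Scaling by the median ratio at all sites shared by the 4 libraries gave −0.47 for the 3′ UTR sites.

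The ends of this order were held by Hsp90ab1 and Cldn4 on one side and Ybx3 and Ivns1abp on the other. Hsp90ab1, a cytosolic chaperone gene, had a log2 ratio of −1.62, from 144 and 144 summit reads in Flag-MBD5 and 90 and 112 in Flag-MBD6. That site reaches into coding sequence, and its strongest peaks began there; the peaks that began in the 3′ UTR had 22 and 31 reads in Flag-MBD5 and 34 in Flag-MBD6 replicate 2. Cldn4, a tight junction gene, had a ratio of −1.52 from 24, 24, 20 and 16 reads. Ybx3, a cold-shock-domain RNA-binding protein gene, had 0.43 from 10, 11, 27 and 34 reads, and Ivns1abp had 0.47 from 9, 11, 32 and 27.

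The sites lay close behind the stop codon. Their median distance from it was 145 nt of transcript (108 to 190), with quartiles of 46 and 558 nt, in 3′ UTRs with a median length of 1183 nt. At 100 of 253 sites (39.5%, 33.7–45.7%) the distance was 100 nt or less, whereas 15.7% of the positions of the same 3′ UTRs lie that close. The first 50 nt alone held 27.3% of sites and 8.14% of positions, and the stretch beyond 1000 nt held 14.6% of sites and 28.6% of positions. In 3′ UTRs of 1000 nt or more, the median site lay at 0.148 of the length. Only 11 sites were within 100 nt of the transcript end.

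Counting a peak of any class, sites nearer the stop codon were also the more shared ones. Such a peak in all 4 libraries was found at 25 of 100 sites (25%, 17.5–34.3%) up to 100 nt from the stop codon, at 10 of 84 (11.9%, 6.60–20.5%) past 100 and up to 500 nt and at 5 of 69 (7.25%, 3.13–15.9%) beyond. The median distance was 53.5 nt (17 to 111) for the 40 sites of all 4 libraries and 208 nt (145 to 322) for the 126 sites of a single library. Only 27 of the 40 sites had a 3′ UTR peak in every library. The part of coding-sequence peaks in this order was not tested. The 5′ end itself lay in coding sequence or the stop codon at 31 sites, and 23 sites also held a peak that began in coding sequence. The reads of these sites can therefore come from fragments that span the stop codon.

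**Figure D4:**
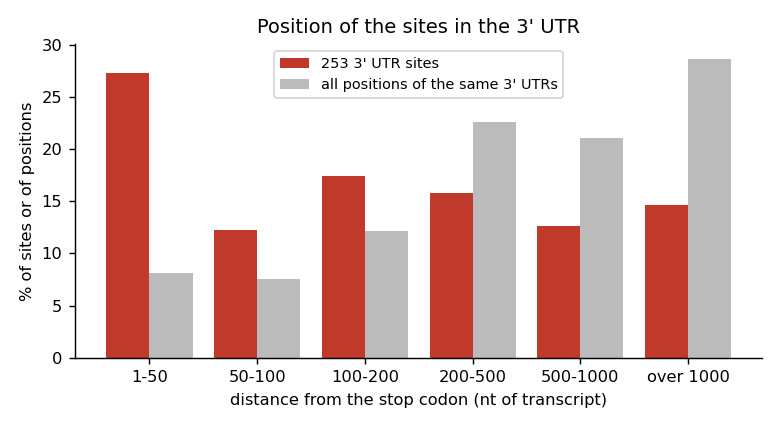
Percentage of the 253 sites (red bars) and of all positions of the same 3′ UTRs (grey bars) on the y axis, by distance from the stop codon in nt of transcript (x axis). The first 50 nt hold 27.3% of the sites and 8.14% of the positions, and beyond 200 nt the grey bars are the higher ones.

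Nearly all sites, 252 of 253, lay in the last exon of the transcript used. In the highest-ranked transcript of the gene by APPRIS, 235 sites lay in the 3′ UTR, 13 in an intron and 5 outside, so that 18 sites rest on another annotated isoform. Ivns1abp is one of the 13, as are both Eif4a2 sites. At 25 sites the extended peaks ran past the annotated transcript end. An exon of another gene on the same strand covered 9 sites, and an exon on the opposite strand lay across 7. Of the 241 genes, 160 (66.4%) also held a peak that began in coding sequence, and 81 did not. Among all 4019 protein-coding genes with a peak of any class, 3823 held a peak that began in coding sequence. Such a peak is enough to place a gene in that set, so this share is high by construction. It cannot be compared with the 66.4%. Of 3823 genes with a coding-sequence peak, 4.19% held a 3′ UTR site.

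The base before the 5′ end was mostly G. It was G at 196 sites (77.5%, 71.9–82.2%), C at 43, T at 10 and A at 4. Each site was read at its 3′ UTR peak with the most summit reads. At coding-sequence sites, read likewise at their coding-sequence peak, the base was G in 74.6% (73.7–75.5%). Taken peak by peak, the share of G was 83.9% (74.8–90.2%) in Flag-MBD5 replicate 1 but 64.0% (53.4–73.3%) in replicate 2, and 69.0% in each Flag-MBD6 library. Coding-sequence peaks of the 2 Flag-MBD5 libraries had 83.4% and 83.3%, so the low share of replicate 2 was seen in the 3′ UTR peaks and not in the coding ones. Those of the Flag-MBD6 libraries had 74.2% and 73.4%, within the intervals of the 3′ UTR peaks (60.6–76.3% and 61.0–75.9%).

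The start of the sites was rich in A and poor in T compared with the 3′ UTRs they lie in. A made up 33.0% of the first 30 nt and 27.3% of the same 3′ UTRs, and T made up 19.2% and 28.7%. In coding-sequence sites A was likewise higher in the window than in the coding region, at 37.7% against 28.7%. C was higher in the 3′ UTR windows than in their 3′ UTRs (24.7% against 21.7%) and lower in coding-sequence windows than in theirs (21.1% against 23.9%).

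Elements known from 3′ UTR biology were rare at the start of the sites. Only TTTTAT and, narrowly, ATTTA had intervals below their share in all windows of the same 3′ UTRs. The polyadenylation signal AATAAA was in 5 of 251 windows (1.99%, 0.854–4.58%), against 4.30% of all 30-nt windows of the same 3′ UTRs. Its variant ATTAAA was in 6 (2.39%, 1.10–5.12%, against 1.78%). The core of AU-rich elements, ATTTA, was in 5 (1.99%, 0.854–4.58%, against 4.59%). The Pumilio-type TGTANATA was in 1 window (0.398%, 0.0704–2.22%, against 0.641%). TTTTAT, the core of a cytoplasmic polyadenylation element, was in 1 (0.398%, 0.0704–2.22%, against 2.48%). CG dinucleotides were in 118 windows (47.0%, 40.9–53.2%), against 29.7% of all windows of the same 3′ UTRs, whereas in coding sequence the shares were closer, at 59.5% and 53.3%. All motifs were searched on the transcript strand only.

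A purine pentamer was the most frequent gain. Of all possible pentamers, GAAGA had the largest difference between sites and 3′ UTR background, which was seen on looking through the data and is given as a description. It was in 82 of 251 windows (32.7%, 27.2–38.7%), against 6.17% of all windows of the same 3′ UTRs and 6.66% of those that follow the same base. The next in rank, AAGAA, overlaps it and was in 24.3% of windows against 6.52% of all, whereas the pentamer TTTGT was in 0 windows against 7.65% of all. Coding-sequence windows held GAAGA in 44.4% (43.4–45.4%), against 12.6% of all windows of the same coding sequences. Relative to its surroundings the pentamer was thus 5.30 times as frequent at 3′ UTR sites and 3.51 times at coding-sequence sites. As a difference in percentage points the order was the opposite, with 26.5 at 3′ UTR sites and more in coding sequence. The pentamer was picked on the 3′ UTR windows, which can raise its 3′ UTR values, so neither order was tested. The 3′ UTR background, here and for the bases and motifs above, covered whole 3′ UTRs. It was not matched for distance from the stop codon. GAAGA occurred 109 times in the 82 3′ UTR windows that held it. The first occurrence in a window began at a median of position 12, counted from 1 at the 5′ end, or 15 over all occurrences. Trp53bp2, Trap1a and Rpn2 above hold it at 2 places each.

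The share of windows with GAAGA differed between the proteins. Sites found only in Flag-MBD5 libraries held it in 7 of 51 windows (13.7%, 6.81–25.7%), sites of both proteins in 21 of 78 (26.9%, 18.3–37.7%), and sites found only in Flag-MBD6 libraries in 54 of 122 (44.3%, 35.8–53.1%). By library, 24.1% and 17.4% of Flag-MBD5 3′ UTR peaks held it and 35.2% and 42.7% of Flag-MBD6 ones, so the libraries of the proteins did not overlap. Coding-sequence sites were ordered alike, with 17.6% (14.9–20.8%), 44.0% (42.5–45.4%) and 48.9% (47.4–50.4%), but there the sites of both proteins stood close to those of Flag-MBD6. The 9 sites of 1 protein printed above go the other way, with the pentamer in 2 of the 4 Flag-MBD5 windows and in none of the 5 Flag-MBD6 windows. Among all sites with a peak of any class in both libraries of 1 protein and none of the other, the shares were 2 of 10 for Flag-MBD5 and, of the 39 for Flag-MBD6, 20 of the 37 with a complete window (54.1%, 38.4–69.0%).

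The base composition followed the same order. A made up 26.5% (SE 1.77, 51 sites) of the windows found only in Flag-MBD5, 30.6% (SE 1.46, 78 sites) in those of both proteins and 37.3% (SE 1.12, 122 sites) in those found only in Flag-MBD6. C fell from 28.6% to 21.8% and T from 23.6% to 17.0% between the first and the last. At sites with a peak in all 4 libraries, the median log2 ratio of Flag-MBD6 to Flag-MBD5 was −0.30 (−0.83 to −0.00357) for the 11 with GAAGA and −0.91 (−0.99 to −0.68) for the 29 without. In coding sequence the medians were −0.17 (−0.20 to −0.12) and −0.33 (−0.37 to −0.28).

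**Figure D5:**
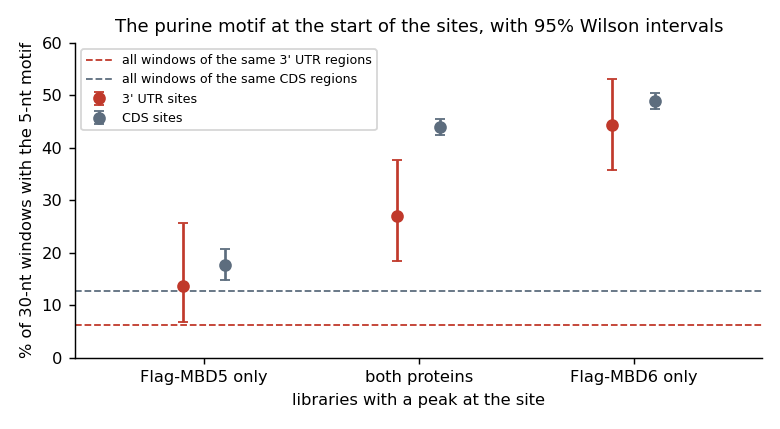
Percentage of 30-nt windows with the purine pentamer (y axis, with 95% Wilson intervals) at sites found in Flag-MBD5 libraries only, in libraries of both proteins and in Flag-MBD6 libraries only (x axis), for 3′ UTR sites in red and CDS sites in grey. Dashed lines give the share of all windows of the same regions (6.17% and 12.6%); the 3′ UTR share goes from 13.7% to 44.3%.

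The pentamer was scarcer at the strongest 3′ UTR peaks. In Flag-MBD6 it was in 56.3% (45.3–66.6%) of 80 windows of peaks with 10 to 14 summit reads and in 14.9% (7.41–27.7%) of 47 with 30 or more, with 28.6% and 48.2% in the bins between and 38.9% (20.3–61.4%) of 18 with fewer than 10. In Flag-MBD5 the shares from 10 to 14 and from 30 reads on were 26.9% (16.8–40.3%) of 52 and 3.45% (0.611–17.2%) of 29, and 10 of 37 windows (27.03%, 15.4–43.0%) held it below 10. Coding-sequence peaks had 59.1%, 50.7% and 43.0% below 10, from 10 to 14 and from 30 reads on in Flag-MBD6, and 52.9%, 45.9% and 36.9% in Flag-MBD5. By position, 39.0% of windows within 100 nt of the stop codon, 33.7% of those past 100 and up to 500 nt and 22.1% (13.8–33.3%) beyond held it, with overlapping intervals.

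No gene held more than 2 sites, and 12 held 2. Among these genes, Usp48, a deubiquitinase gene, had its pair in Flag-MBD6 replicate 2 alone, with fold enrichments of 13.8 and 6.23 at 22 and 403 nt from the stop codon. Actb, the beta-actin gene, had sites at 194 and 586 nt, the first with 9.05 and 7.96 in Flag-MBD6 and the second with 11.3 in Flag-MBD5 replicate 1 and 7.09 in Flag-MBD6 replicate 1. The first Actb window occurs unchanged in Lrrc58, whose 3′ UTR has 2 sites that also lie in an actin-like processed pseudogene, Gm15725. Eif4a2, an RNA helicase gene of translation initiation, had sites at 37 and 768 nt, and Scd2, a fatty acid desaturase gene, at 361 and 854 nt. A630089N07Rik had sites at 743 and 1403 nt, both with peaks in the 2 Flag-MBD6 libraries.

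Gene groups were described by how many of their members with a peak of any class held a 3′ UTR site, beside 241 of 4019 (5.997%) for all protein-coding genes. Of selenoprotein genes, whose 3′ UTRs direct selenocysteine insertion, 2 of 7 held one, Selenok with a fold of 7.84 in Flag-MBD5 replicate 1 and Selenot with 9.91 in Flag-MBD5 replicate 2. Each was thus seen in a single library. Of SR splicing factor genes, 3 of 11 did. Srsf7 had 7.72 in Flag-MBD5 replicate 1 and 10.9 and 9.90 in Flag-MBD6, whereas Srsf2 and Srsf10 had a 3′ UTR peak in 1 Flag-MBD6 library each, with 10.6 and 11.6.

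The ribosomal protein genes held 3′ UTR sites in 6 of 64 (9.38%), most of them in 1 library. Rpl41 had the most shared one, with 3′ UTR peaks in 3 libraries, and Rpl19, Rpl9, Rps26, Rps29 and Rpl39 had them in 1 each. The windows of Rpl9, Rpl19, Rpl41 and Rps26 match other transcripts with up to 3 mismatches, so their reads may be shared with copies. Replication-dependent histone genes, whose mRNAs end in a stem-loop instead of a poly(A) tail, held 1 site in 36 genes with a peak, Hist2h2aa2, with a fold of 5.51 in Flag-MBD5 replicate 1 and an exact copy in Hist2h2aa1.

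Of the genes for writers and readers of 5-methylcytosine in RNA and for the TET oxidases, which act on methylcytosine, 1 of 7 with a peak held a site. This was Ybx1, which encodes a cold-shock-domain reader, with 10.3 in Flag-MBD5 replicate 2 and 7.31 and 5.75 in Flag-MBD6. The PR-DUB and MBD5/MBD6 genes held none in 7 genes with a peak. Among pluripotency genes 3 of 12 did. Esrrb, an orphan nuclear receptor gene, had a site at 483 nt with 5.89 and 5.41 in Flag-MBD5 and 4.55 in Flag-MBD6 replicate 2, and another at 1219 nt with 7.75 and 6.31 in replicate 2 of each protein. Sox2 and Tdgf1 had one each in Flag-MBD6 replicate 2, with folds of 5.10 and 3.05, which were among the weakest in that library.

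The ATP synthase genes, chosen after their values were seen, held sites in 5 of 10 genes with a peak (symbols beginning with Atp5). All 5 had a peak in all 4 libraries, and in 4 of them, Atp5e, Atp5f1, Atp5j2 and Atp5mpl, each was a 3′ UTR peak. Their sites lay 7 to 65 nt from the stop codon in 3′ UTRs of 134 to 288 nt. Fold enrichments were 7.18, 7.11, 5.91 and 8.16 for Atp5e and 8.77, 6.32, 9.84 and 11.3 for Atp5f1. Atp5j2 had 6.88, 7.90, 12.5 and 13.8, with both Flag-MBD6 values above both Flag-MBD5 values, as in Atp5f1 and Atp5mpl. Scaled to the library totals, the log2 ratio of Flag-MBD6 to Flag-MBD5 reads was −0.30 for Atp5j2, −0.21 for Atp5f1 and −0.0036 for Atp5mpl, so that the order in fold was not seen in the scaled reads.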

How the data were processed

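CLIP–seq of Flag-tagged MBD5 and MBD6 in mES cells gave 4 deposited peak lists, 2 per protein. As the study's methods state, the authors removed adapters, filtered and collapsed reads, kept those over 15 nt, removed rRNA reads and aligned the rest to mm10 without splicing with bowtie 1.0.0 (up to 3 mismatches and 10 places, 1 reported). They split strands with samtools 1.16.1 and called peaks per library and strand with MACS2, with reads extended to 150 bp and q under 0.01. Whether the inputs served as control is not given in the sources used here. The deposited columns hold a score, the fold ratio over the local background, −log10 p-values and −log10 q-values, and the summit offset.

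Summit reads were rebuilt as the whole number and Poisson rate that give both the fold, (reads + 1)/(rate + 1), and the p-value, which succeeded for all 29555 peaks. Library totals were estimated from the lowest rates with the stated genome size of 130000000. Positions, windows and neighbouring annotations came from GENCODE vM21 transcripts, with 1 transcript per site (APPRIS principal, longest coding sequence, longest transcript). Peaks overlapping by 1 bp on a strand were merged into sites. Shares carry Wilson 95% intervals, and medians order-statistic intervals. Named sites were the 12 best by mean rank of fold among sites with a 3′ UTR peak in all 4 libraries, up to 5 per protein without a peak of the other, 5 genes with most sites, all genes of the lists and the 2 highest and lowest ratios. The members and lists were chosen with earlier results of these data known, and GAAGA and the ATP synthase genes after seeing the values. The steps were tested on simulated data (Python 3, numpy, pandas, scipy). Depth limits single peaks to a few reads, so intervals cover counting error only. A replicate number did not pair the samples: over 3566 shared sites, deviations of same-numbered libraries had a correlation of 0.0297.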

Additional observations from a re-analysis of the deposited data

How the results depend on the processing

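Of 211 recomputed values, 171 stayed within the interval of the reported one, or within 1.5 times for counts, and none changed its sign. Some of the 171 could not move, such as the replicate recall of a protein when a library of the other was left out. The values that moved came mainly from the position by which a peak is placed. Placing it by its midpoint or its summit gave 1153 and 1165 peaks and 553 and 587 sites, with MBD5 shares of 7.15% and 6.58% and MBD6 shares of 6.38% and 6.12% (difference −0.773 points at the midpoint). Replicate recall was then 68.6% and 68.0% in MBD5 libraries, 74.4% and 73.7% in MBD6 libraries, and 83.5% and 83.9% of MBD5 regions were overlapped by MBD6 regions. The log2 fold difference to coding-sequence peaks shrank to −0.27 and −0.24, GAAGA was in 43.9% and 45.1% of windows, A made up 36.4% and 36.8%, the median distance from the stop codon was 55 and 58 nt, 62.7% and 65.2% of sites lay within 100 nt of it, and the log2 ratio of the proteins was −0.31 and −0.32. By construction these placements add peaks that begin in coding sequence, since reads were extended to 150 bp. At 30 nt inside, the shares were 2.43% and 2.08%, GAAGA was in 38.9% of windows and 46.9% of sites lay within 100 nt. A window of 50 nt held GAAGA in 41.8%. Read per peak, G preceded 83.9%, 64.0%, 69.0% and 69.0% of peaks in the 4 libraries.

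Leaving out 1 library at a time gave 302 to 361 peaks, 197 to 232 sites, a log2 fold difference of −0.45 to −0.42, GAAGA in 28.1% to 34.8%, a median distance of 128 to 156 nt and a log2 ratio of −0.87 to −0.63. Overlap between the proteins depended on it, since a protein left with 1 library keeps all its peaks: 50.0% to 77.8% of MBD5 and 23.4% to 48.4% of MBD6 regions, the lowest of them without Flag-MBD5 replicate 1 and without Flag-MBD6 replicate 1. With the replicate number as a block, the log2 ratio was −0.77 and did not cross 0. The blocked difference in share, −0.211 points, equals the main one by construction. Without sites that have copies in other genes, an alternative chosen after seeing the data, the log2 ratio was −0.79. Depth limits the weak end: the median 3′ UTR peak had 12 to 18 summit reads, depending on the library.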
